A study of Homo sapiens with 18 samples.

Results

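The exon parts examined here are the probe sets of an exon-level array that carry the chromosome code 15 and a running number. An exon part is a stretch of an exon that has its own set of probes on the array. Members were the exon parts of code 15 with a mean log2 value over the 9 exon-level arrays of at least 5, which kept 9382 of the 19237 exon parts of that code. The members lie among 250847 exon parts of codes 01 to 22 that passed the same minimum, and among 573909 exon parts on the whole array. All samples came from MDA-MB-231, a human breast cancer cell line that lacks estrogen and progesterone receptors, in 3 groups with 3 arrays each. Control cells were the line without paclitaxel or exogenous TRA2A. PTX cells were the same line exposed to paclitaxel at 10 nM, which binds microtubules and keeps them from disassembling. The 231T cells were the same line with exogenous expression of TRA2A, a splicing regulator, from a vector. The labels do not say whether control cells carried an empty vector, how long paclitaxel was given and whether replicate arrays stem from different dishes. The p-values thus measure array-to-array spread, which may be technical.

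The array reports a level for each exon part separately, so that a gene is read many times along its length, and neighbouring numbers of one gene share transcripts and are not independent. TRA2A is an RNA-binding protein of the SR-related class that binds enhancer elements within exons and favours their inclusion in the spliced transcript. Chromosome 15 carries genes of matrix and adhesion such as THBS1, FBN1 and LOXL1, of mitosis such as KNL1, NUSAP1 and PRC1, of DNA repair such as BLM and FANCI, and an imprinted region at its centromeric end. THBS1 encodes thrombospondin-1, a secreted glycoprotein that binds cells and matrix, restrains the growth of blood vessels and releases TGF-beta from its latent form.

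The order of the running numbers was set against RefSeq's gene order of GRCh38.p14 for 339 genes. Below number 9712, 159 of 161 genes lie on the plus strand, and from it on 178 of 178 lie on the minus strand. The cut was chosen as the number that best separates the strands of these same genes, so these counts are a description. Spearman's rho of the number with the RefSeq gene start was 0.926 in the first block and 1.0 in the second, as a description. Up to the last number with a single gene symbol, 18718 of 22602, the named numbers thus follow the chromosome once per strand, with 3961 members in the first block and 4076 in the second. The 1345 members past that number could not be placed by this check. Of these, 58 share all 9 values with an earlier member, 41 of them with one of the plus-strand block, so probe sets recur there. Identical exon parts, of which 768 were counted in code 15, also occur before it. For example, PSR15006746 and PSR15006747 of FAH share all 9 values. Counts of members and calls therefore include repeated values. Gene symbols came from the platform annotation and were updated through RefSeq. A single symbol was held by 6474 members (555 symbols), several symbols by 482 and none by 2426.

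Promoters of genes with long runs of called exon parts are shown, since the runs described below lie mostly within single genes, over all or part of their members. The sequences are RefSeq's, from GRCh38.p14, and span 250 bases before to 50 bases after the annotated gene start, written 5′ to 3′ on the strand of the gene. Capitals mark the CCAAT box, an element that NF-Y binds, and the GC box with the letters GGGCGG, which Sp1 binds, each on either strand. The 4 genes shown are THBS1 (chr15:39580829-39581128, plus strand), ZWILCH (chr15:66505076-66505375, plus strand) and BLM (chr15:90717096-90717395, plus strand), which lie in runs higher in 231T, and VPS39 (chr15:42208255-42208554, minus strand), which lies in a run lower in 231T.
THBS1: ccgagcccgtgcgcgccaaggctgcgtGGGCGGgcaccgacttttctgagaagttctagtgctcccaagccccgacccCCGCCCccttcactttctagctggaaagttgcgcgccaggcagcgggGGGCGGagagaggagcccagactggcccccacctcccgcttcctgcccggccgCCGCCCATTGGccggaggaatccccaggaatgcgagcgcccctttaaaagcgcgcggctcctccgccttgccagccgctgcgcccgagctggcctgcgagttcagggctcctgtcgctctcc
ZWILCH: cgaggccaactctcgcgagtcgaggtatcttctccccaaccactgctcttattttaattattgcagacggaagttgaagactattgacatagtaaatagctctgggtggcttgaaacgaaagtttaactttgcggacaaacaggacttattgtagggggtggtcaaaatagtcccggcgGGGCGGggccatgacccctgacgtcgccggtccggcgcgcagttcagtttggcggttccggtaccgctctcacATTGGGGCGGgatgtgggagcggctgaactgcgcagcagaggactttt
BLM: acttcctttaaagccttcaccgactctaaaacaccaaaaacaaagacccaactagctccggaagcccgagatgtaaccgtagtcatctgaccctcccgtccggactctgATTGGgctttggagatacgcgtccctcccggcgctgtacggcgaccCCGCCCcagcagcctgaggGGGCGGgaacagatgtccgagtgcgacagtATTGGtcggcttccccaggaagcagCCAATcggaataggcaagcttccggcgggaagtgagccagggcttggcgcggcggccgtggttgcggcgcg
VPS39: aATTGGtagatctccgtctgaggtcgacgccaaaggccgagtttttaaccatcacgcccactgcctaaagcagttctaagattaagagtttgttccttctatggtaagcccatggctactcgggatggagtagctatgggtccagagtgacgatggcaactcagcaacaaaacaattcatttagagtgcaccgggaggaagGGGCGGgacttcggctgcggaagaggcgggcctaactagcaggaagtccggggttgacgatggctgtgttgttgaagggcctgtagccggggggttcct
The THBS1 window held 4 GC boxes and 1 CCAAT box, which begins 66 bases before the gene start and adjoins a GC box. In ZWILCH a CCAAT box and a GC box share letters just past the start. BLM held 3 CCAAT boxes and VPS39 held 1, at the far end of its window. Of the other windows read for long runs, that of SNRPA1 held 1 CCAAT box and no GC box, and that of IDH2 held neither. Only the first listed window of each named gene was read, and a gene can have other annotated starts. A box missing from a window may thus lie at another start. Over all 35116 promoters of the table, 34.6% held the CCAAT box and 45.0% the GC box on either strand. The leading genes of the runs of at least 10 number 14, of which 12 matched the table with 15 promoters. Of these 15, 7 held the CCAAT box and 9 the GC box. The CHR element, with the letters TTTGAA, was held by 1 of the 15 and by 15.2% of all promoters. The TATA box, with the letters TATAAA, was held by 1 and by 11.5%. The AP-1 site, with the letters TGACTCA, was held by 0 and by 4.95%. These matches describe the letters of the windows and no binding.

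Facts of the arrays bear on every value below. TRA2A levels at gene level are given as deposited log2. They were 6.50, 7.15 and 6.95 in control, 8.32, 7.82 and 7.60 in PTX and 9.37, 9.42 and 9.19 in 231T. These values do not separate transcripts of the vector from the cells' own. All 231T arrays were above all others, and the PTX arrays lay between, without passing the limma test at gene level (adjusted p = 0.0864). Of 22 TRA2A exon parts, 2 were called higher in PTX, PSR07018752 by 2.61 and PSR07018753 by 2.54 (limma adjusted p = 0.0485 and 0.0444). In 231T 17 were called higher and 1 lower, PSR07018748 by -0.86. Over all exon parts and junctions, 0.0918% were called higher in PTX and 17.8% in 231T. Of the line's markers, VIM, CD44 (1 of 2 clusters), KRT8, KRT18 and EGFR were high and ESR1, PGR and CDH1 lay near the floor, as did PTPRC, CD3E, PECAM1, ALB and TYR, markers of other cell types. The median exon part lay at 5.01 ± 0.02 for control, 5.02 ± 0.05 for PTX and 4.61 ± 0.03 for 231T (deposited log2, SD, n = 3), so each array was centred on its own median over codes 01 to 22, and every exon-part level and difference below is log2 on that scale. For 2995 probe sets held by both the exon-level and the gene-level table, the 231T values were identical between tables, while the control and PTX values differed by a median of -0.17 to -0.19. The groups were thus not processed alike in at least 1 of the tables, and in the comparison of 231T with control, processing and TRA2A cannot be told apart. PTX replicate 1 stood nearer to the 231T arrays, with a mean correlation over members of 0.937 against 0.888 and 0.908 for PTX replicates 2 and 3. In bulk RNA, fewer cells with a transcript and less of it per cell cannot be told apart.

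The longest run of neighbouring members called higher in 231T held 38 exon parts, from PSR15001678 to PSR15001731, of which 35 belong to THBS1 and 3 to EIF2AK4, the kinase GCN2 that senses uncharged tRNA. The run was chosen by the comparison of 231T with control, so its 231T values are a description. The run's median level was 6.40, 7.37 and 7.16 in the control arrays, 8.72, 8.70 and 8.26 in PTX and 11.21, 11.66 and 10.67 in 231T. The 3 groups formed separate steps with no overlap, lowest in control and highest in 231T. The median difference over the 38 exon parts was 3.75 in 231T and 1.40 in PTX. For the run's median in PTX against control, an exact two-sided permutation test gave p = 0.1, the smallest that 3 against 3 arrays allow. No exon part of the run was called in PTX by limma (0 of 38 at an adjusted p under 0.05, smallest adjusted p = 0.0587), where 0.0918% of all 448953 exon parts and junctions were called higher. At an unadjusted p under 0.05 there were 32 of 38, all higher, all in THBS1, where 13.7% of all exon parts and junctions had such a p. Both comparisons use the same control arrays, and control replicate 1 was the lowest of them.

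**Figure D1:**
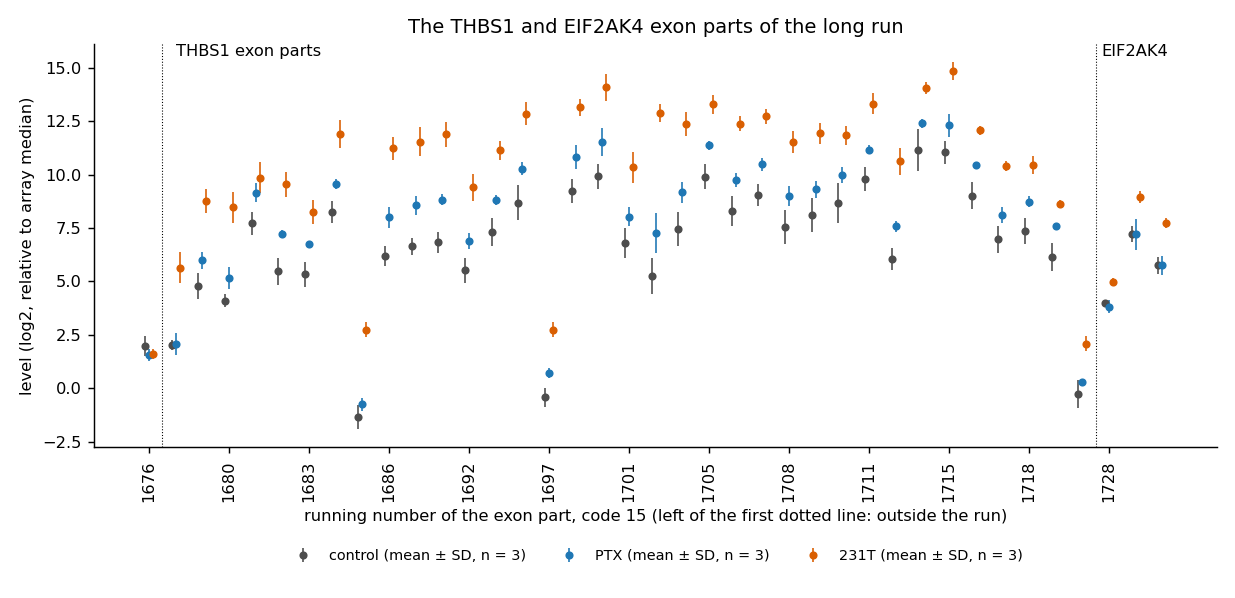
Level of each exon part of the long run, with the THBS1 exon part before it, by running number. The horizontal axis is the running number and the vertical axis the log2 level relative to the array median, as mean ± SD of 3 arrays per group; in the THBS1 stretch the 231T means lie above the control means throughout, by 2.12 to 7.63, while the first point, outside the run, shows no such step.

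Along THBS1 the step was present at nearly every exon part. Of its 44 exon parts on the array, 36 were members and 35 stood in the run, with differences in 231T from 2.12 at PSR15001681 to 7.63 at PSR15001703. The first of the run, PSR15001678, read 1.79, 2.26 and 2.06 in control, 2.35, 1.46 and 2.40 in PTX and 6.16, 5.94 and 4.82 in 231T. Here PTX overlapped control and only 231T stood above, with a PTX difference of 0.03, the lowest among the THBS1 exon parts of the run. PSR15001703 read 4.30, 5.83 and 5.65 in control, 8.31, 6.96 and 6.55 in PTX and 13.07, 13.20 and 12.40 in 231T. All 9 arrays kept the order of the groups, and the 231T difference of 7.63 exceeded the gene's median of 3.80. PSR15001690, with the highest PTX difference of the run, read 6.25, 7.18 and 7.03 in control, 8.75, 9.12 and 8.62 in PTX and 11.89, 12.45 and 11.31 in 231T. Its PTX difference of 2.01 had the smallest adjusted p of the run, 0.0587 (limma). At PSR15001681, with the lowest 231T difference of THBS1 in the run, 231T replicate 3 (9.01) lay within the PTX range of 8.66 to 9.52.

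Over the 36 THBS1 members the PTX difference was above 0 in 35, and all 3 PTX arrays stood above all 3 control arrays in 32, where 7.93% of all exon parts and junctions did so. The THBS1 member outside the run was PSR15001676, which read 2.13, 1.48 and 2.38 in control, 1.46, 1.32 and 1.89 in PTX and 1.65, 1.84 and 1.36 in 231T. Its groups overlapped, and it carried the lowest number of the THBS1 members. The other 8 THBS1 exon parts had means of 2.75 to 4.91, below the minimum, and their uncentred 231T differences ran from 0.10 to 1.90. Within the run, PSR15001685 passed the minimum through 231T alone. It read -1.83, -1.47 and -0.73 in control, -0.59, -0.53 and -1.09 in PTX and 2.86, 3.03 and 2.36 in 231T. In the deposited scale, 14 to 20 of the 36 THBS1 values of each 231T array exceeded 16, the top of a 16-bit scanner on the log2 scale, against 0 to 2 in control. Differences are therefore log2 steps of the deposited values and were not read as folds of RNA.

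Exon junctions of THBS1, which were no members and are read by probes of their own, had the same order of groups. Of 19 junctions tested, 17 were called higher in 231T, where 17.8% of all exon parts and junctions were. This count is a description, since the same gene and comparison chose the run. In PTX 0 were called and 16 had an unadjusted p under 0.05, where 13.7% of all exon parts and junctions had such a p. The median level of the 19 junctions was 6.55, 8.02 and 8.19 in control, 9.41, 9.53 and 8.97 in PTX and 11.80, 11.59 and 10.57 in 231T. The 3 groups again did not overlap. The largest junction step was at JUC15000750, with 2.05, 4.26 and 3.90 in control, 5.88, 4.20 and 4.95 in PTX and 9.70, 10.96 and 9.72 in 231T. Going the other way, JUC15000735 read 1.35, 2.19 and 2.12 in control, 1.99, 3.36 and 2.17 in PTX and 1.04, 0.91 and 1.23 in 231T, a 231T difference of -0.82. These 2 junctions were chosen after their values were seen. In the gene-level table THBS1 (TC15000270) read 5.92, 6.92 and 6.89 in control, 8.13, 7.76 and 7.63 in PTX and 10.05, 10.41 and 9.46 in 231T. The gene-level difference in PTX was 1.27 ± 0.32 (SE) and did not pass the test (limma, adjusted p = 0.108), and in 231T it was 3.40. Among 394 genes with at least 5 members, THBS1 had the highest median difference in both comparisons, 1.42 in PTX and 3.80 in 231T.

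EIF2AK4 ended the run. Only 3 of its 38 members, at PSR15001728, PSR15001729 and PSR15001731, stood in it, and over all 38 the median difference was 0.52 in 231T and -0.17 in PTX. The last of the run, PSR15001731, read 6.20, 5.43 and 5.62 in control, 6.08, 5.26 and 5.95 in PTX and 7.80, 7.91 and 7.47 in 231T. PTX overlapped control here, with a difference of 0.02, and 231T stood above both. The lowest PTX difference of the run, -0.18, and its lowest 231T difference, 1.0, were both at PSR15001728. The next member, PSR15001732, had a 231T difference of 1.11 and was not called. Of the members outside the run, those most like its median over the 9 arrays were an exon part of SNRPA1 (PSR15018606, Pearson's r = 0.989), one of GABPB1 (PSR15013021, r = 0.987), one of SCG5 (PSR15001318, r = 0.983), one of AAGAB (PSR15015279, r = 0.981) and the unnamed PSR15021847 (r = 0.980). The 9 arrays share their groups, so these values only describe likeness. The SCG5 exon part lay below the array median on every control and PTX array and passed the minimum through 231T alone.

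With the long run there were 12 runs of at least 10 neighbours called higher in 231T, and 3 called lower, most of them within 1 gene. Over code 15, 1716 members were called higher in 231T (18.3%) and 1262 lower (13.5%), where 17.8% and 16.8% of all exon parts and junctions were called higher and lower (34.6% either way). These are counts from the comparison that chose the long run and are given as a description. Runs of at least 3 neighbours numbered 170 higher, with 870 members, and 86 lower, with 373 members. In PTX no 2 neighbours were called in the same direction.

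FANCI, a partner of FANCD2 in the repair of DNA crosslinks, had 20 consecutive exon parts (PSR15007825 to PSR15007846) with a median of 2.77, 3.09 and 2.72 in control, 4.28, 2.71 and 3.12 in PTX and 5.91, 6.09 and 4.98 in 231T. ZWILCH, a subunit of the RZZ complex of the kinetochore, had 15 (PSR15005040 to PSR15005055), at 4.70, 4.95 and 4.87 in control, 6.74, 4.46 and 5.28 in PTX and 7.95, 8.35 and 8.24 in 231T. In both, the 231T arrays stood above the other 6, PTX replicate 1 lay in between and the other PTX arrays lay near control. BLM, the helicase mutated in Bloom syndrome, had 13 (PSR15008180 to PSR15008193), at -0.36, 0.04 and -0.14 in control, 1.52, 0.23 and -0.18 in PTX and 2.96, 3.13 and 2.55 in 231T. Its control arrays lay near the array median, which is close to the minimum, so some of its exon parts may have passed through 231T. The size of its step rests on dim values. A run of 10 with 7 exon parts of PCLAF, which binds the replication clamp PCNA, and 1 of CSNK1G1, a casein kinase, read 5.86, 6.49 and 6.16 in control, 7.24, 6.20 and 6.01 in PTX and 9.56, 9.37 and 10.05 in 231T. In both, PTX replicate 1 was the highest of its group and the 231T arrays stood above the other 6.

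SNRPA1, a protein of the U2 particle of the spliceosome, had 11 (PSR15018602 to PSR15018615), at 4.75, 5.88 and 4.77 in control, 6.34, 5.97 and 5.33 in PTX and 9.42, 8.94 and 8.85 in 231T. Its PTX arrays overlapped control replicate 2 and its 231T arrays stood apart, with a median difference of 3.30. AAGAB, which assists the assembly of clathrin adaptor complexes, had 10 with a median difference of 2.06. TSPAN3, a tetraspanin, had 10 with 1.76, and SPPL2A, a protease within membranes, had 11 with 2.02. DPP8, a cytosolic dipeptidyl peptidase, had 12 with 1.95, and CTDSPL2, a phosphatase, had 11 with 2.59. An unnamed run of 13 (PSR15020147 to PSR15020159) had a median difference of 3.70. Its PSR15020154 shares all 9 values with PSR15005047 of the ZWILCH run, so these 2 runs are not separate throughout. In PTX the median differences of these 7 runs, SNRPA1 included, were between 0.08 and 0.72, and none of their exon parts was called.

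The 3 runs called lower in 231T were also low in PTX. VPS39, a subunit of the HOPS complex that tethers late endosomes and lysosomes, had 14 (PSR15011584 to PSR15011597), at 5.56, 4.96 and 5.20 in control, 4.05, 3.34 and 4.18 in PTX and 3.35, 3.37 and 3.40 in 231T. IDH2, the mitochondrial isocitrate dehydrogenase that makes NADPH, had 11 (PSR15017889 to PSR15017899), at 3.76, 4.17 and 3.97 in control, 2.35, 2.26 and 2.39 in PTX and 2.01, 1.90 and 1.84 in 231T. In both the 3 control arrays stood above the 6 others. A run of 10 that joins LOXL1, a crosslinking enzyme of elastin, to PML, which builds nuclear bodies, read 4.61, 4.85 and 4.95 in control, 3.73, 3.76 and 4.16 in PTX and 2.97, 2.85 and 3.09 in 231T. Here the groups again formed 3 separate steps. All 3 PTX arrays lay below all 3 control arrays in 13 of the 14 exon parts of VPS39, 11 of 11 of IDH2 and 7 of 10 of LOXL1 and PML, where 11.3% of all exon parts and junctions did so. In these 3 runs 1 exon part, of IDH2, passed the limma test in PTX.

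**Figure D2:**
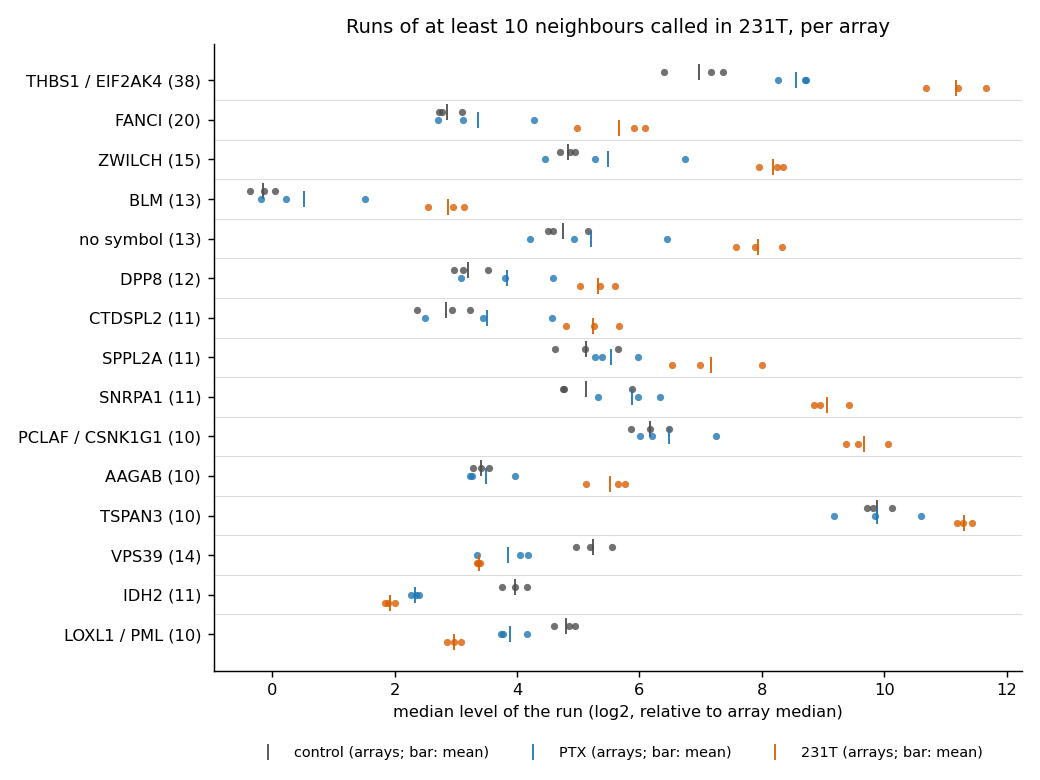
Median level of each of the 15 runs of at least 10 neighbours, one row per run with its number of exon parts in brackets. The horizontal axis is the log2 level relative to the array median, dots are the 9 arrays and bars are group means; 231T stands to the right of control in the upper 12 rows and to the left in the lower 3, and PTX follows 231T most closely in the lower 3.

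Few members were called in PTX. The test called 11 of the 9382 members (0.117%), 5 higher and 6 lower, where it called 0.38% of all 448953 exon parts and junctions, 0.0918% higher and 0.288% lower (limma, adjusted p under 0.05). Among exon parts alone, without junctions, 0.4% of all codes were called. At an unadjusted p under 0.05 were 13.3% of the members. The calls did not hold when arrays were left out. Leaving out any 1 array gave 0 calls, except for 231T replicate 3, without which there were 8. With only the control and PTX arrays in the fit there were also 0.

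The 5 higher exon parts lie in SLTM and MYEF2. SLTM, a protein related to the scaffold attachment factors that bind RNA and DNA, gave 4 of them. PSR15014059 read 4.17, 3.77 and 4.15 in control, 7.55, 6.65 and 6.17 in PTX and 5.68, 4.97 and 4.51 in 231T. PTX stood above both other groups, with a difference of 2.75 ± 0.41 (SE, limma adjusted p = 0.0375). PSR15014066 read 5.52, 5.61 and 5.77 in control, 8.15, 7.75 and 7.54 in PTX and 7.15, 6.48 and 6.87 in 231T, again highest in PTX. The other 2, PSR15014056 and PSR15014046, differed by 2.26 and 1.65 in PTX. Over the 29 SLTM members, 23 had an unadjusted p under 0.05 and 21 had all PTX arrays above control, against 13.7% and 7.93% of all exon parts and junctions. The gene's median difference was 1.33 in PTX and 1.31 in 231T. From PSR15014053 to PSR15014059 the PTX differences were 2.26 to 2.75 and the 231T differences 0.35 to 1.31, while from PSR15014046 to PSR15014050 the 231T differences were the larger. The difference between the 2 comparisons was not tested. At gene level SLTM differed by 1.17 in PTX (limma, adjusted p = 0.104).

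MYEF2, a repressor of transcription first described at the myelin basic protein gene, gave the fifth. PSR15012671 read 2.15, 2.36 and 3.06 in control, 5.72, 4.82 and 4.88 in PTX and 6.47, 6.79 and 6.05 in 231T. The groups did not overlap, and the PTX difference was 2.62 ± 0.37 (SE, limma adjusted p = 0.0321). Over the 22 members of MYEF2 the median difference was 0.73 in PTX, with 10 at an unadjusted p under 0.05.

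The 6 lower exon parts lie in 6 genes. TMED3, a p24 protein of transport between endoplasmic reticulum and Golgi, read 9.86, 9.67 and 9.30 in control, 6.98, 7.37 and 7.78 in PTX and 5.90, 6.15 and 7.14 in 231T at PSR15006679, and its 4 members had PTX differences from -0.97 to -2.23. IDH2 read 5.75, 5.90 and 5.42 in control, 3.21, 3.68 and 3.88 in PTX and 2.07, 2.37 and 2.74 in 231T at PSR15017895. Each had its 3 control arrays on top, with PTX differences of -2.23 ± 0.38 and -2.10 ± 0.30 (SE, limma adjusted p = 0.0480 and 0.0330). LARP6, which binds collagen mRNAs, differed by -1.77 at PSR15015555, where the 3 control arrays were 5.02, 5.02 and 4.98 and the 3 PTX arrays 3.27, 3.18 and 3.26. POLG, the mitochondrial DNA polymerase, differed by -1.58 at PSR15017692, FAH, an enzyme of tyrosine breakdown, by -1.73 at PSR15006744 and TPM1, a tropomyosin of actin filaments, by -1.54 at PSR15004609. In FAH and TPM1 the called exon part stood alone, since each of the other 16 members of FAH and 20 of TPM1 had an unadjusted p above 0.05. In POLG 14 of 22 members had an unadjusted p under 0.05.

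**Figure D3:**
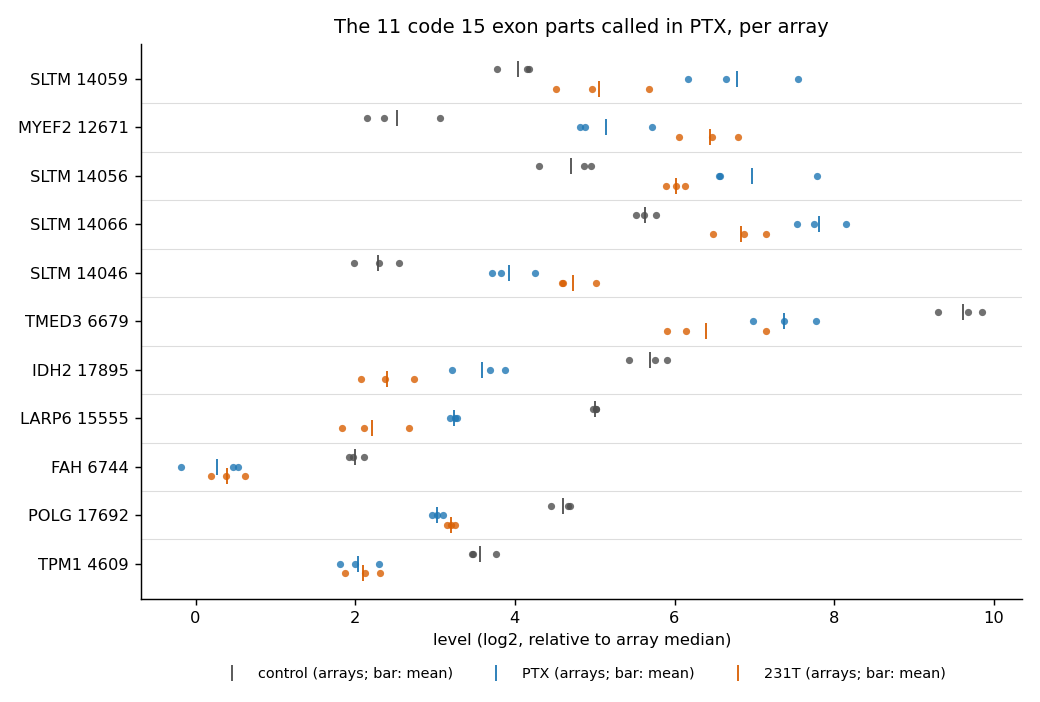
Level on each array of the 11 code 15 exon parts called in PTX, labelled by gene and running number. The horizontal axis is the log2 level relative to the array median, dots are arrays and bars group means; control and PTX are apart in all 11 rows, and in the 4 SLTM rows PTX lies to the right of 231T in 3.

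Summarised per gene, the highest PTX medians after THBS1 were those of SLTM, WDR76 (1.05) and CLN6 (1.02), and the lowest those of CHAC1 (-2.59), PAQR5 (-1.73) and PARP16 (-1.71). Medians over 394 genes had a centre of -0.05 and a 5th to 95th percentile of -0.88 to 0.62. These genes were chosen after their values were seen. WDR76 read 2.94, 4.04 and 3.73 in control and 4.88, 3.94 and 3.95 in PTX, so only PTX replicate 1 lay above the control range. CHAC1, which breaks down glutathione and is induced by stress of the endoplasmic reticulum, read 7.36, 5.11 and 5.66 in control, 2.89, 2.43 and 4.10 in PTX and 2.74, 2.84 and 3.27 in 231T. Its controls spread widely, with all above the other groups, and no exon part passed the test in PTX (smallest limma adjusted p = 0.0726). PARP16, an ADP-ribosyltransferase of the endoplasmic reticulum, read 3.73, 3.66 and 2.98 in control, 1.91, 1.44 and 2.13 in PTX and 1.49, 1.57 and 1.23 in 231T. CLN6, a protein of the endoplasmic reticulum mutated in a lysosomal storage disease, read 3.15, 3.43 and 4.08 in control, 3.97, 4.57 and 4.45 in PTX and 5.44, 5.83 and 6.34 in 231T, so PTX replicate 1 lay within the control range.

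Single exon parts with the most extreme 231T differences were named by rule. PSR15004398, without a symbol, read -0.30, -0.32 and -0.23 in control, -0.46, 0.43 and 1.11 in PTX and 7.33, 7.83 and 8.58 in 231T. Its control arrays lay below the array median, so the size of its 231T difference, 8.20, rests on dim control values. RAB8B, a small GTPase of vesicle transport, read 7.16, 6.79 and 7.04 in control, 7.68, 6.60 and 6.80 in PTX and 12.24, 12.54 and 12.29 in 231T at PSR15004657. In both, only 231T stood apart. An exon part of ZWILCH (PSR15005044) differed by 5.18. The unnamed PSR15022574 differed by 5.73 ± 1.29 (SE), with a wide spread in each group. Its control arrays read 2.38, 4.25 and 5.58, and 231T replicate 3 (7.44) lay next to PTX replicate 1 (7.40). At the low end MFGE8, a secreted protein that marks dying cells for uptake, differed by -4.63 at PSR15017637, SMAD6, an inhibitor of BMP signalling, by -4.39 at PSR15005073, CEMIP, which takes part in hyaluronan breakdown, by -4.17 at PSR15006841 and CHP1, a calcium-binding protein, by -4.06 at PSR15002173. The unnamed PSR15016814 differed by -4.51, with 231T arrays at -0.89, 0.89 and -1.41. In MFGE8 and CEMIP no 231T array exceeded 0.04, so these sizes, like that of PSR15016814, rest on dim values. CHP1 read 12.60, 11.96 and 12.13 in control, 11.45, 11.39 and 11.51 in PTX and 7.58, 8.83 and 8.12 in 231T, so its fall set 231T apart from both other groups.

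Exon parts of 1 gene did not always move together in 231T. Of the 394 genes with at least 5 members, 358 had an exon part called in 231T, 137 of them only higher, 124 only lower and 97 in both directions. Of all members, 31.7% were called in 231T. In 9 genes at least 3 were called each way, namely UBE3A, FBN1, TLE3, RTF1, TBC1D2B, USP3, TPM1, RASGRF1 and PDIA3. This minimum and the genes of this paragraph were chosen after the values were seen, and the calls are a description. UBE3A, a ubiquitin ligase imprinted in neurons, changed direction along its numbers. From PSR15009752 to PSR15009761, 7 were called higher, by up to 2.24, and from PSR15009765 to PSR15009771, 5 were called lower, by down to -1.99. Its PTX differences lay between -0.71 and 0.43 with none called. TPM1, whose transcripts use alternative exons and ends, had 8 called higher and 3 lower. The highest, PSR15004605, had a control mean of 4.04 ± 0.31, a PTX mean of 4.18 ± 0.76 and a 231T mean of 6.69 ± 0.10 (SD, n = 3). Numbered between exon parts called higher, PSR15004609 was called lower in both comparisons, at 3.57 ± 0.17, 2.03 ± 0.25 and 2.10 ± 0.22 in the same order.

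**Figure D4:**
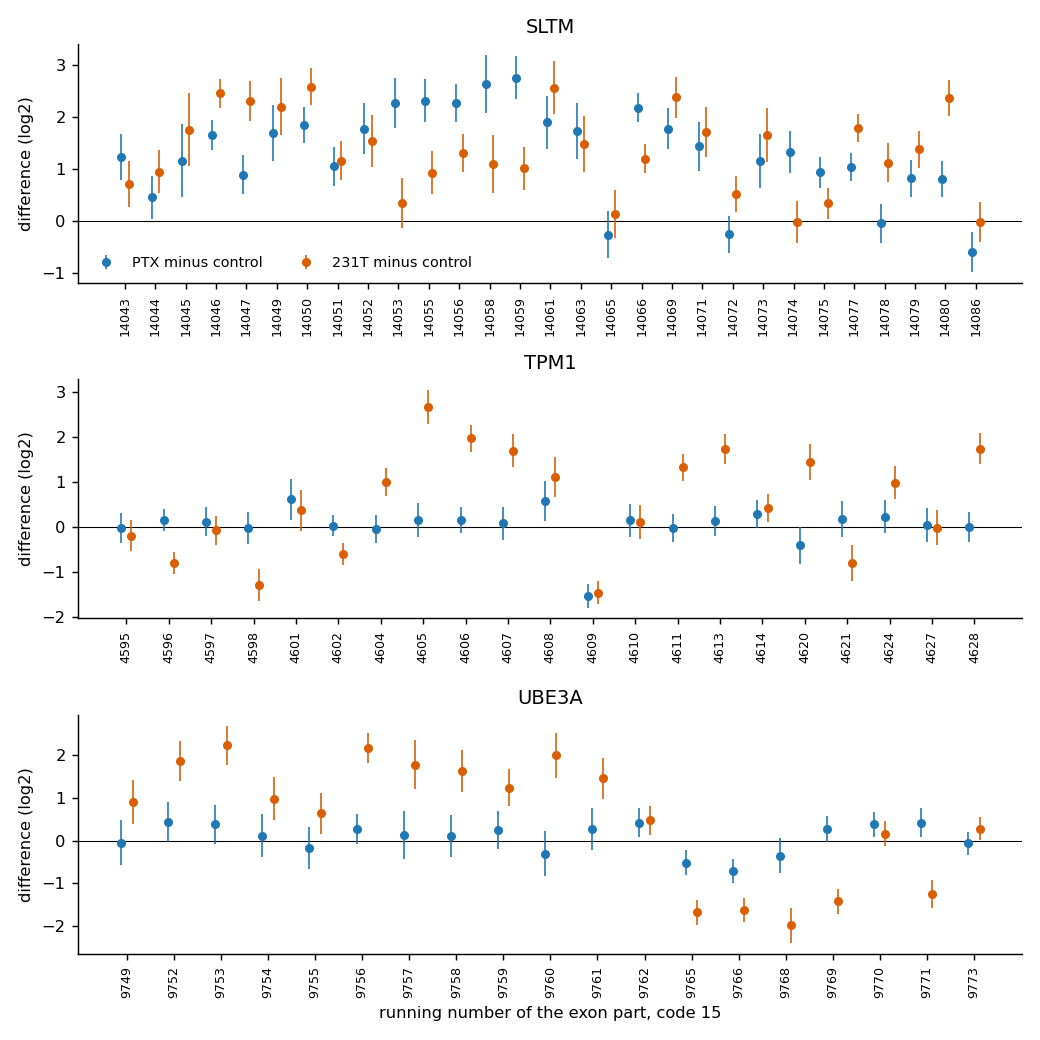
Differences from control (log2, ± SE of the limma fit) of each member of SLTM, TPM1 and UBE3A by running number, for PTX and 231T. In SLTM both comparisons lie mostly above 0, in TPM1 and UBE3A the PTX points lie near 0 apart from 1 exon part of TPM1, and the 231T points of UBE3A change from above to below 0 along the gene.

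The code as a whole did not stand apart. The control arrays had a median member level of 2.19 ± 0.04, the PTX arrays of 2.17 ± 0.23 and the 231T arrays of 2.34 ± 0.16 (SD, n = 3), so the PTX arrays differed more among themselves than from control. The shift in PTX was -0.03 ± 0.13 (SE, limma over 22 codes, adjusted p = 0.948), the 7th highest of 22 codes, which ran from -0.19 to 0.03. In 231T the shift was 0.15, the 11th of 22, in a range of -0.21 to 0.45. Without PTX replicate 1 the PTX shift was -0.14, and without PTX replicate 2 it turned to 0.08.

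Windows of 50 consecutive members localised the differences. In PTX 2 of 188 windows of code 15 were called (1.06%), both lower, where 1.51% of 5020 windows of all codes were called (limma). The first, with SMAD6, SMAD3, IQCH, C15orf61 and MAP2K5, had a median of 5.25, 5.35 and 5.41 in control, 3.71, 4.0 and 4.62 in PTX and 3.53, 3.23 and 3.24 in 231T. Its 3 control arrays stood above all others, and its PTX difference was -1.23 ± 0.21 (SE, adjusted p = 0.0347). SMAD3 carries TGF-beta signals, SMAD6 inhibits BMP signals and MAP2K5 is the kinase that activates ERK5. The second, from MORF4L1 to FAH, read 6.39, 6.73 and 6.79 in control, 5.75, 5.22 and 5.92 in PTX and 6.57, 6.38 and 6.44 in 231T, with PTX alone below (-1.01 ± 0.19, SE, adjusted p = 0.0434). Without any 1 array the count ran from 0 to 10, with 10 when PTX replicate 1 was dropped. In 231T the highest windows were that of THBS1 and EIF2AK4 (3.25), that of DIS3L, MAP2K1 and ZWILCH (2.38) and that of CALML4, CLN6, ITGA11 and ANP32A (2.24). The lowest were the SMAD6 to MAP2K5 window (-2.0), that of MYO9A, GRAMD2A, PKM and PARP6 (-1.26) and that around LOXL1 and PML (-1.20).

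**Figure D5:**
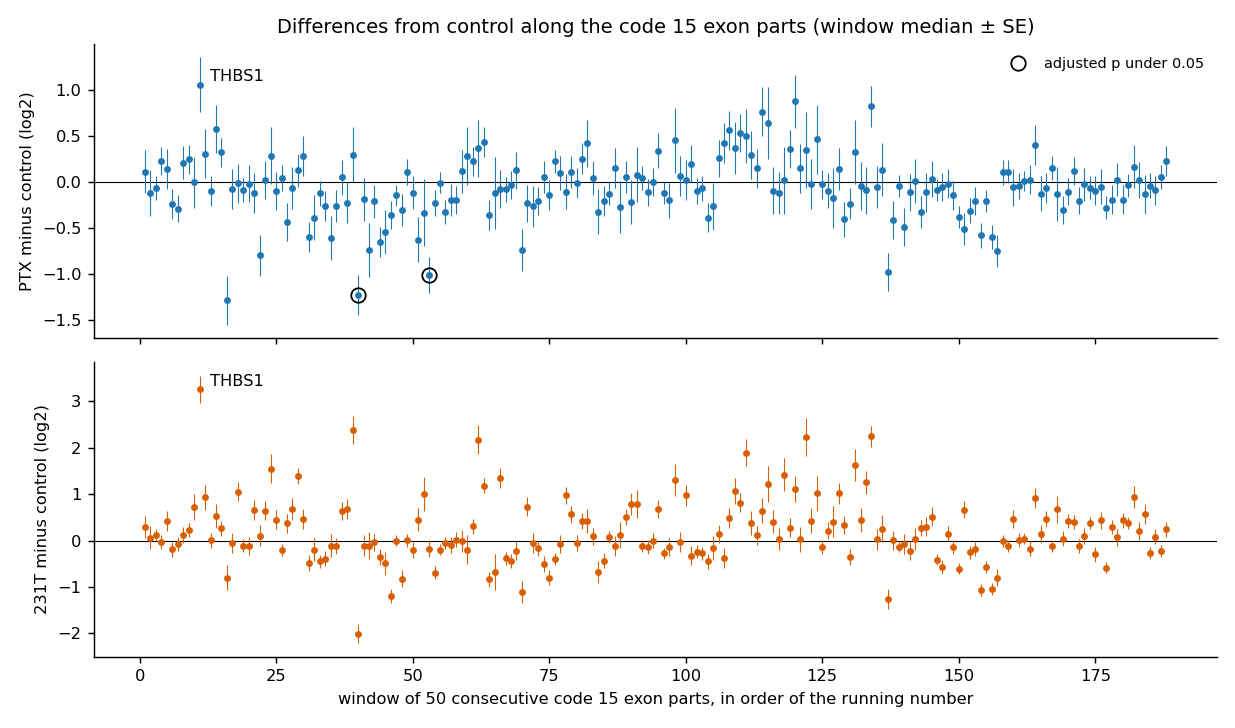
Differences from control along code 15, in windows of 50 consecutive members ordered by running number (the last window holds 32), for PTX above and 231T below. Points are window medians averaged over 3 arrays, bars the SE of the limma fit, and circles the 2 windows called in PTX; the THBS1 window is the highest point of both panels.

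The gene-level table holds the same cells as 1 value per transcript cluster, and 2010 clusters of code 15 were tested. In PTX 23 were called (1.14%), 4 higher and 19 lower, where 1.43% of 50646 clusters of all codes were called, 0.308% higher and 1.12% lower (limma). The named ones were all lower, namely VPS39, PARP6, CRTC3, LOXL1, IDH2, VPS33B, POLG, BBS4, CTSH, MAP2K5 and CYP1A1. VPS39 differed by -1.11 ± 0.19 (SE, limma adjusted p = 0.0366), at 5.02, 4.53 and 4.57 in control, 3.78, 3.19 and 3.82 in PTX and 3.41, 3.39 and 3.24 in 231T. IDH2 differed by -1.02 ± 0.12 (SE, limma adjusted p = 0.0131), at 2.91, 3.18 and 3.08 in control, 2.07, 1.87 and 2.19 in PTX and 1.71, 1.48 and 1.70 in 231T. In both genes control stood on top on all arrays, as in the exon-level table. PARP6, an ADP-ribosyltransferase, differed by -1.07, CRTC3, a coactivator of CREB, by -1.04, LOXL1 by -1.03, CTSH, a lysosomal protease, by -0.75 and CYP1A1, an oxidase of foreign compounds, by -0.72. VPS33B and BBS4, of vesicle sorting and cilia, differed by -0.86 and -0.79. Of the unnamed clusters, TC15000326 rose by 1.89 and TC15000538 fell by 1.45. When arrays were left out, the count was 41 without PTX replicate 1, and with control replicate 1 or 3 gone it was 1. It was 3 without PTX replicate 2, 4 without control replicate 2, 8 without 231T replicate 1 and 10 without 231T replicate 2. Without PTX replicate 3 it was 20 and without 231T replicate 3 it was 25, near the 23 of the main fit.

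Chromosome 15 genes were also grouped by function. Each count below is of exon parts, with the test in PTX and a description in 231T. Mitosis and microtubule genes (11 of 12 listed genes, 189 exon parts) had 0 called in PTX, with a median difference of 0.52 and gene medians above 0 in 10 of 11, and 69 called higher (36.5%) and 5 lower (2.65%) in 231T, against 17.8% and 16.8% of all exon parts and junctions. PTX replicate 1 was the highest PTX array in 11 of 11 genes, and without it the list's PTX median was 0.13, with 8 of 11 gene medians above 0. The part of that array in the result was not tested further. KNL1, a scaffold of the kinetochore, had a control level of 1.22 ± 0.12, a PTX level of 2.32 ± 0.94 and a 231T level of 2.10 ± 0.37 (SD, n = 3). NUSAP1, a protein of spindle microtubules, had 6.21 ± 0.28, 6.82 ± 0.80 and 8.02 ± 0.17 in the same order, and PRC1, which bundles microtubules of the midzone, 5.44 ± 0.34, 5.63 ± 1.33 and 6.45 ± 0.34. The spread of the PTX arrays exceeded their difference from control in NUSAP1 and PRC1. TUBGCP4, of the gamma-tubulin ring, went the other way in PTX (3.91 ± 0.12 in control, 2.96 ± 0.34 in PTX), and its gene-level value did not pass the test (limma, adjusted p = 0.059). The median over all members was -0.03 in PTX and 0.09 in 231T.

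DNA repair and checkpoint genes (6 of 7 genes, 163 exon parts) had 71 called higher (43.6%) and 12 lower (7.36%) in 231T and in PTX 1 called, that of POLG, lower. FANCI gave 34 of its 46 exon parts, BLM 21 of 27 and WDR76 14 of 16 to the higher calls. Adhesion, matrix and secreted genes (10 of 11, 198) had 53 higher (26.8%) and 37 lower (18.7%) in 231T, 35 of the higher from THBS1, and 0 called in PTX. FBN1, the fibrillin of microfibrils, read 3.04 ± 0.09 in control, 3.64 ± 0.26 in PTX and 2.79 ± 0.30 in 231T. RNA-processing genes (11 of 13, 146) had 50 higher (34.2%) and 16 lower (11%) in 231T and, in PTX, the 4 of SLTM higher and that of LARP6 lower. Signalling genes (12 of 12, 205) had 16 higher (7.80%) and 52 lower (25.4%) in 231T and 0 in PTX, with a PTX median of -0.26. IGF1R, the receptor of insulin-like growth factor 1, read 6.79, 6.45 and 6.41 in control, 5.84, 5.15 and 5.55 in PTX and 5.95, 5.72 and 4.87 in 231T, with all control arrays above the rest and none of its exon parts called in PTX. MAP2K1, a kinase upstream of ERK, had 11 of 17 called higher in 231T.

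Metabolism genes (12 of 12, 123) had 22 higher (17.9%) and 40 lower (32.5%) in 231T and 1 lower in PTX, that of IDH2. IDH3A had 11 of 17 and SORD 9 of 13 called higher in 231T. CTSH had 12 of 17, IDH2 11 of 13 and HEXA 8 of 16 called lower. PKM, the pyruvate kinase of glycolysis, had 1 higher and 2 lower of 19. Cytoskeleton and traffic genes (10 of 10, 363) had 65 higher in 231T (17.9%, near the 17.8% over all exon parts and junctions). They had 23 lower (6.34%) in 231T and 1 lower in PTX, that of TPM1. VPS13C had 23 of 83 and MYO5A 19 of 45 called higher in 231T. The imprinted segment and its neighbours (10 of 15, 195) had 35 higher (17.9%) and 25 lower (12.8%) in 231T and 0 called in PTX. The share called higher is near that over all exon parts and junctions. Among them CYFIP1 had 12 of 35 called lower and NIPA2 8 of 16 called higher. HERC2 had 13 of 89 called higher, a share below the 17.8% over all exon parts and junctions. Antigen presentation genes (2 of 2, 28), B2M and PDIA3, had 12 higher (42.9%) and 5 lower (17.9%) in 231T and 0 called in PTX.

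The minimum of 5 cut through the dim exon parts. Just inside lay PSR15007310 and PSR15002536, with means of 5.0002 and 5.0005, and just outside PSR15013169 and PSR15018767, with means of 4.9993 and 4.9999.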

How the data were processed

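Biotin-labelled RNA was read on Affymetrix arrays, giving 9 exon-level and 9 gene-level records, 3 per group. The authors deposited log2 values, for which the submitters' processing notes name Expression Console 1.3.1 and RMA (background correction, normalization between arrays, summary per probe set). The settings, the genome build and the set of arrays normalized together are not given in the sources used here. Exon parts therefore carry no coordinates. Each exon-level array was centred on its median over the exon parts of codes 01 to 22, and each gene-level array on its median over the transcript clusters of those codes. All exon parts and junctions with a mean of at least 5 were fitted with limma 3.58.1 in R 4.3.3 (lmFit, eBayes, all 9 arrays; degrees of freedom 6 residual, 3.75 prior). The Benjamini-Hochberg method adjusted p over all 448953, with a threshold of 0.05. Medians per code and windows of 50 (a last one of at least 25) were fitted likewise, as were gene-level clusters at or above the 25th percentile (3.71 on the deposited log2 scale). The fit was tested on simulated data. The median residual SD was 0.476, and the number of arrays limits the precision. RefSeq promoters were matched by symbol. FANCI, TSPAN3 and PML were not matched.

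Named exon parts are, per comparison, the 5 called with the highest and the 5 with the lowest difference whose arrays do not overlap, the 2 on each side of the minimum, and the first, last and extreme exon parts of the long run. Named runs have at least 10 neighbours, and where PTX had 6 lower calls all were named, as were all 15 runs and all 11 named clusters, beyond the rule. Members, lists and tests were chosen with earlier results of these data known, and the long run by the comparison of 231T with control. Alternatives were other minima (4 and 7), no centring, quantile normalization, 2 groups only, the replicate number as a block, array weights, identical exon parts kept once and leaving out each array. The description of control replicates 2 and 3 gives another final digit of the line's name, and their source name, MDA-MB-231, was followed.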

Additional observations from a re-analysis of the deposited data

How the results depend on the processing

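Under the alternatives that were run, the longest run of neighbours called higher in 231T held 35 to 40 exon parts. Whether it covered the same exon parts each time was not checked. Over the members of the long run, the median difference was 3.35 to 3.98 in 231T and 1.06 to 1.58 in PTX. The choice of the run fixed its direction in 231T, so the 231T values and the length are a description. Calls in PTX did not hold, and the cause was not tested. Among exon parts, 11 calls became 4 with a minimum of 4, 58 with a minimum of 7, 20 with quantile normalization, 52 with array weights and 0 with the 2 groups only, and 0 to 8 without 1 array. In the long run, 0 calls became 2 with a minimum of 7 and 1 with array weights. Among windows, 2 calls became 1 with a minimum of 4, 5 without centring, 14 with quantile normalization, 50 with array weights, 0 with the 2 groups only and 0 to 10 without 1 array. Among transcript clusters, 23 calls became 33 without centring, 18 without the filter and 1 to 41 without 1 array. The median shift of the code in 231T was 0.26 with a minimum of 7 and -0.25 without centring, which takes in the lower median of the 231T arrays, and in PTX it ran from -0.14 to 0.083 without 1 array, turning to 0.083 without PTX replicate 2. With the replicate number as a replicate block, 0 exon parts, 0 windows and 0 transcript clusters were called in PTX. Deviations of same-numbered arrays from their group means had correlations of -0.126 to -0.00224, for control with PTX and control with 231T. With 3 arrays per group, this check cannot tell whether the numbers pair the arrays. The 231T count of called exon parts stayed between 2031 and 3690. Where 1 array was left out, the group of 2 was assumed to vary like the others. All 231T values are limited by the unequal processing of the groups, and levels above 16 by the range of a scanner. Leaving PTX replicate 1 out of the list medians was chosen after seeing the data. It turned the PTX median from above to below 0 for the imprinted, DNA repair, cytoskeleton and antigen presentation lists (-0.04, -0.10, -0.12 and -0.07).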
